A study of Mus musculus with 27 samples.

Results

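The regions described here are the wide accessible regions of an ATAC-seq study of cardiac reprogramming, those of 500 bp or more. They were chosen by the width column of the deposited table alone, and they number 1549 of 30815 regions (5.03%). ATAC-seq marks open chromatin, because a transposase inserts sequencing adapters where DNA is not wrapped up. The cells were a line of neonatal mouse cardiac fibroblasts immortalised with large T antigen, of strain Cd-1, carrying an alpha-MHC-GFP reporter. Retroviruses delivered Gata4 (G), Mef2c (M) and Tbx5 (T) singly (groups G, M and T), as 2 factors (GM, GT and MT) or as all 3 (GMT). Cells were taken without sorting at day 2. With the control this makes 8 groups of 3 libraries. Control cells had a dsRed retrovirus, which encodes a fluorescent marker, and no chemical treatment. All 7 factor groups were cultured with sb431542, an inhibitor of TGF-beta signalling, and xav939, an inhibitor of Wnt signalling. Factors and inhibitors therefore cannot be told apart in any comparison with the control. Factor groups set against one another do not have this limit. The 3 samples of dsRed with inhibitors have no column of counts and so could not be analysed here.

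Gata4 is a zinc-finger protein, Mef2c a MADS-box protein and Tbx5 a T-box protein, and all are transcription factors of the developing heart. Forced expression of the trio is a known way to push fibroblasts towards a cardiomyocyte-like state. Open chromatin is found mainly at promoters and enhancers, where bound factors displace nucleosomes. A called region may span a single site or several neighbouring ones. Its width is no direct measure of how open it is, and levels are given below also per kb of width.

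Total counts per library ran from 241394 to 1704896 (median 661976), and the counts inside wide regions from 29483 to 220925 (median 83080). Between libraries of 1 group, Spearman correlations across the 1365 wide regions tested ran from 0.773 to 0.964 over 24 pairs (median 0.926). The library labelled GT replicate 1 went against its label. Its correlation was 0.970 with G replicate 1, above every value within a group, but 0.773 with GT replicate 2 and 0.790 with GT replicate 3. A chi-square test of its counts against those of G replicate 1 over the wide regions gave 1.51 per degree of freedom, against 1.70 to 13.3 for pairs within a group. It stays in the comparisons under its label. The values of GT and of the averaged additions are also given without it. So are the numbers of wide regions called in the other groups against the control, because all groups were fitted together. Replicates are biological per the labels, but whether they were separate cultures is not said, and the spread behind each p-value may be partly technical. How the regions and their edges were set is not given in the sources used here. The name of the count table in the sample descriptions holds ChIP beside ATAC, so the regions may come from ChIP-seq of bound factors as well as from open chromatin, and a width may then not be that of an open stretch. Whether width was set by the same libraries that are counted was not tested. Regions were not assigned to genes, and the labelled cell type was not checked against marker genes.

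Most wide regions lay near the threshold. Their median width was 569 bp, with quartiles at 528 and 637 bp and a maximum of 1484 bp, whereas all regions had a median of 234 bp. Of the 1549, 977 were 500 to 599 bp wide, 369 were 600 to 699 bp, 136 were 700 to 799 bp and 67 were 800 bp or more. The filter on low counts kept 1365 of them (88.1%), against 65.4% of the narrower regions. The 184 that were not tested had totals of 11 to 195 counts over the 24 libraries, and those tested had 98 to 15392. Wide regions lay on every chromosome except Y, which had 5 regions in all. Their share of a chromosome's regions ran from 2.95% on X to 6.70% on chromosome 5. The median distance to the nearest other region was 10214 bp for the wide regions tested and 9950 bp for narrower regions of similar mean count.

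Narrower regions of similar mean count serve as the comparison throughout. The wide regions tested were split into 10 bins of equal size by their mean log2 CPM (counts scaled to library size) over the 24 libraries. Values of the narrower regions in each bin, 520 to 5763 of 18889 in range, were then weighted so that every bin counted alike. Both sets have a median mean level of 5.44 on the log2 CPM scale, whereas all narrower regions tested have 4.34. No test was made of the difference between wide and narrower regions, and it is given as a description of these libraries.

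Wide regions held a larger part of the reads in the groups with Tbx5. They took 10.7% ± 0.303 of the counts in the control (SD, n = 3), 11.4% ± 0.386 in G, 11.0% ± 0.0504 in M and 11.6% ± 0.407 in GM. In T the share was 13.3% ± 0.716, in MT 12.7% ± 0.371, in GT 12.4% ± 1.13 and in GMT 13.5% ± 1.19. The lowest T library had 12.5% and the highest library without Tbx5, GM replicate 1, had 11.9%, so that T and the groups without Tbx5 did not overlap. Of the 12 libraries labelled with Tbx5 only GT replicate 1, at 11.3% (exact 95% interval 11.2 to 11.3), fell within the range of the libraries without it. Without it the GT mean was 13.0% ± 0.792 (n = 2). In 6 of the 8 groups the library with the fewest counts also had the lowest share, among them G replicate 2 (11.0%) and GMT replicate 1 (12.2%), while in T the library with the fewest counts had the highest (13.8%). The part of depth in the shares was not tested. Intervals cover counting error only.

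**Figure D1:**
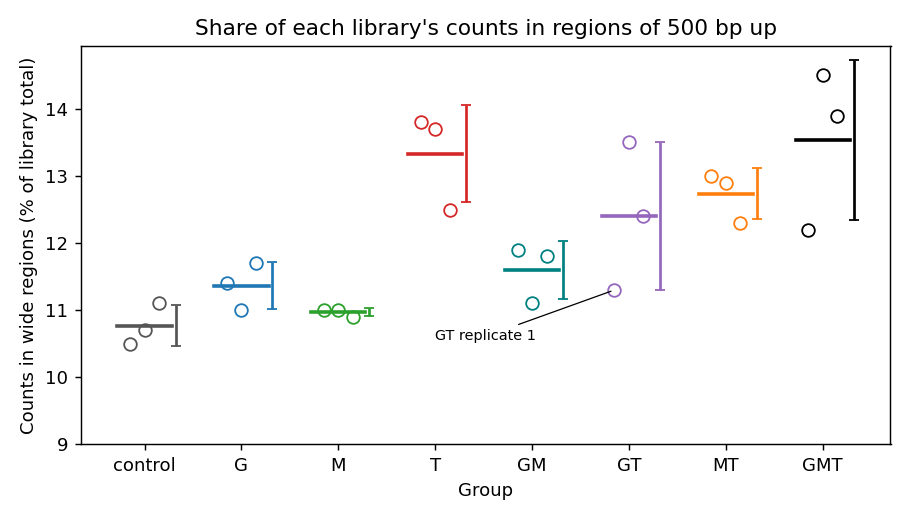
Percentage of each library's total count that fell in regions of 500 bp or more, by group. Circles are libraries (n = 3 per group), horizontal lines are group means and vertical bars are 1 SD; the axis starts above 0. T lies at 12.5 to 13.8% and the control at 10.5 to 11.1%.

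The level of a typical wide region was lowest in the control and highest in GMT. The median over wide regions was 50.2 ± 3.74 CPM per kb in the control (mean and SD of 3 library medians), with libraries from 46.0 to 53.1. In G it was 65.9 ± 6.19, in M 61.0 ± 4.60 and in GM 72.4 ± 6.73 CPM per kb, and the libraries of each of these groups lay above all control libraries. In T the median level was 94.5 ± 16.4, in GT 88.2 ± 21.1, in MT 101 ± 8.89 and in GMT 118 ± 30.0 CPM per kb. Spread within these groups was larger, from 66.5 to 109 in GT, where GT replicate 1 was the lowest and the other 2 had 109 and 89.5, and from 84.3 to 141 in GMT. Narrower regions of similar mean count had about the same median level in all groups, from 159 ± 16.1 CPM per kb in T to 178 ± 8.40 in the control. That wide regions stand below them per kb follows from matching on counts and dividing by width. The gap itself was smaller in GMT (118 against 170) than in the control (50.2 against 178).

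**Figure D2:**
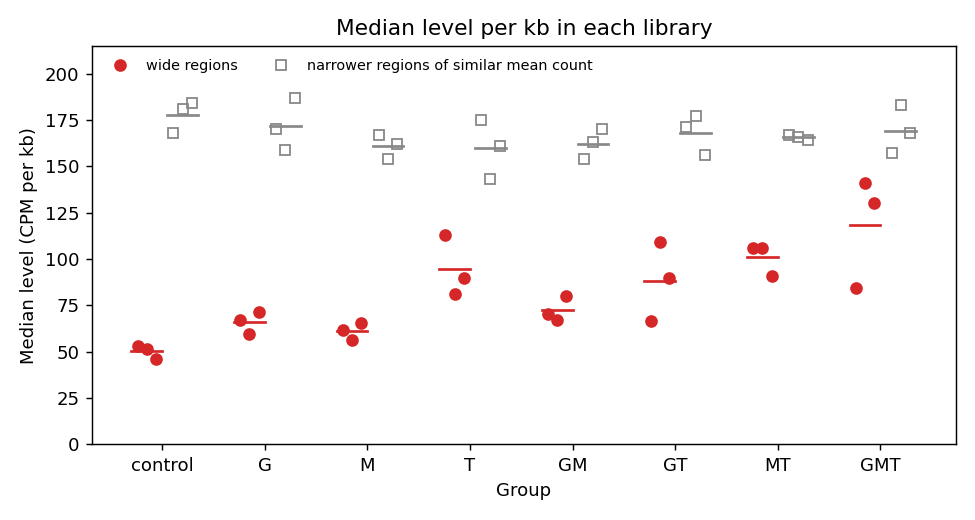
Median level in CPM per kb of width in each library, for the 1365 wide regions tested (filled circles) and for narrower regions weighted to the same mean counts (open squares); lines are group means (n = 3 libraries). Circles climb from 46.0 to 53.1 in the control to 84.3 to 141 in GMT, while the squares stay between 143 and 187.

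Wide regions differed more between groups than narrower regions of similar mean count. The median range of the 8 group means was 1.92 on the log2 CPM scale for wide regions and 1.28 for the narrower ones. The median SD within groups was 0.52 and 0.45 on the same scale, so replicate spread was also a little larger in wide regions. T was the group with the highest mean level at 396 of 1365 wide regions (29.0%) and at 23.3% of the matched narrower regions. GMT was highest at 243 wide regions (17.8%) and 7.21% of the narrower ones. The control was highest at 119 wide regions (8.72%), against 22.0% of the narrower ones.

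The number of wide regions called in each comparison with the control is given next. A region is called when edgeR's quasi-likelihood test, fitted to all 20494 regions tested, gave an adjusted p (Benjamini-Hochberg) below 0.05, and log2 fold changes are ± SE. In GMT, 587 of the 1365 wide regions tested were higher than the control, 43.0%, beside 23.0% of all regions tested and 15.3% of narrower regions of similar mean count. Another 69 were lower (5.05%, beside 10.5% of all and 14.4% of the narrower). In T, 381 rose (27.9%, beside 14.5% and 10.9%) and 98 fell (7.18%, beside 10.6% and 12.1%). MT had 452 higher (33.1%, beside 17.5% and 11.6%) and 56 lower (4.10%, beside 7.20% and 8.32%). GT had 366 higher (26.8%, beside 13.1% and 8.85%) and 33 lower (2.42%, beside 5.81% and 6.78%). The groups without Tbx5 had fewer. G had 185 higher (13.6%, beside 9.61% and 6.71%) and 53 lower (3.88%, beside 6.07% and 6.99%). M had 172 higher (12.6%, beside 9.67% and 6.17%) and 94 lower (6.89%, beside 6.47% and 7.65%). GM had 220 higher (16.1%, beside 8.50% and 5.50%) and 39 lower (2.86%, beside 3.75% and 4.27%). In both directions together, the wide regions called were 238 in G (17.4%, beside 15.7% of all regions tested), 266 in M (19.5%, beside 16.1%), 479 in T (35.1%, beside 25.1%) and 259 in GM (19.0%, beside 12.2%). They were 399 in GT (29.2%, beside 18.9%), 508 in MT (37.2%, beside 24.7%) and 656 in GMT (48.1%, beside 33.5%). The 7 comparisons share the control libraries. In each of them the share called higher was above that of the narrower regions, by 6.43 points in M up to 27.7 points in GMT. When GT replicate 1 was left out, 390 rose and 29 fell in GT, with 28.4% of wide and 9.44% of matched narrower regions higher. The other groups, fitted in the same model, then changed too. G had 203 higher and 71 lower, M 187 and 111, and T 391 and 107. GM had 242 and 61, MT 478 and 64, and GMT 611 and 75. Calls over all regions rose too, from 3213 to 3801 in G, 3308 to 3807 in M and 5153 to 5576 in T. They rose from 2510 to 3048 in GM, 5053 to 5738 in MT and 6869 to 7622 in GMT. Matched on CPM per kb in place of CPM, the difference was 2.08 points in M, 4.27 in G and 21.1 in GMT.

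**Figure D3:**
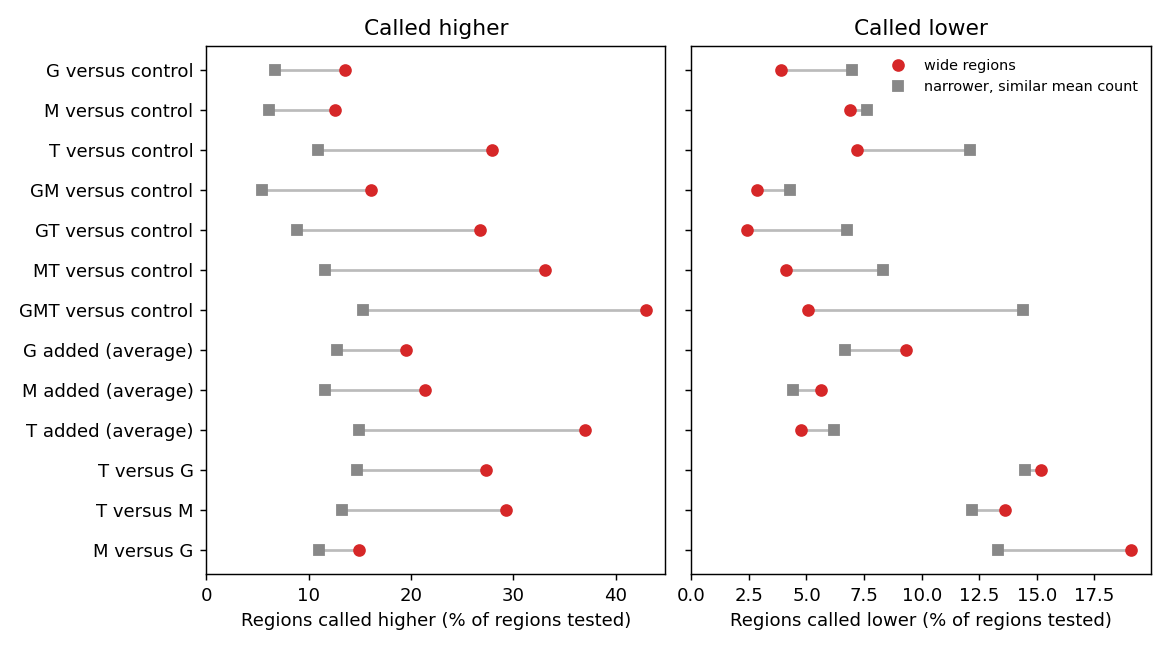
Percentage of regions tested that were called higher (left) or lower (right) in each of 13 comparisons, for wide regions (circles, n = 1365) and narrower regions of similar mean count (squares). The circles lie to the right of the squares for higher calls in all 13 comparisons, from 14.9 against 11.0% in M versus G to 43.0 against 15.3% in GMT versus control.

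Median log2 fold changes over the wide regions tested were above 0 in all 7 groups, at 0.13 in G, 0.04 in M, 0.36 in T, 0.21 in GM, 0.40 in GT, 0.46 in MT and 0.80 in GMT. Over all regions tested these medians were 0.00, 0.00, -0.02, 0.05, 0.05, 0.06 and 0.09. The narrower regions of similar mean count had -0.07, -0.07, -0.05, -0.08, -0.10, -0.15 and -0.21. Without GT replicate 1 the GT medians were 0.37 over wide regions and -0.04 over all. The wide median in M turned to -0.02 with no filter on low counts and rounded to 0 with only the M and control libraries in the fit, so its sign depends on these settings. In GMT, 940 wide regions (68.9%) had a log2 fold change above 0, against 39.8% of the matched narrower regions. The upper end moved most, with a 90th percentile of 3.09 in GMT and 1.58 in G among wide regions, and 10th percentiles of -0.57 and -0.79.

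The excess of higher calls held at nearly every count level, while the deficit of lower calls did not in every group. In GMT versus control, wide regions had the larger share of higher calls in all 10 bins of mean count. Among wide regions with a mean log2 CPM of 4.335 to 4.725 (bin 3), 68.6% were called higher and 28.9% of narrower regions were. In the bin with most counts, from 7.828 to 9.738, these shares were 2.92% and 0%, and the shares called lower, the largest of the 10 bins, were 13.9% and 30.0%. In T versus control the larger share was with the wide regions in 9 of 10 bins, with 44.9% against 12.8% in bin 5 and 10.9% against 14.6% in bin 1. For G and GM it was 10 of 10 bins, for GT 10, for MT 9 and for M 8. Wide regions had the smaller share of lower calls in 10 bins for GT and GMT and 9 for G. For GM and MT it was 8 bins, for T 7 and for M 6. In bin 8, 13.9% of wide and 7.09% of narrower regions were lower in M, and 14.6% and 9.09% in T.

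Shares also graded with width on either side of the threshold. With all classes weighted to the mean counts of the wide regions, 9.76% of regions under 300 bp were higher in GMT, 22.0% of those of 300 to 399 bp and 31.6% of those of 400 to 499 bp. The wide classes followed at 39.9% for 500 to 599 bp, 45.2% for 600 to 699 bp, 50.2% for 700 to 799 bp and 52.4% for 800 bp up, the last from 52 regions tested. In T the shares were 7.45, 14.2 and 21.7% below the threshold and 24.8, 32.5, 31.2 and 31.0% above it. M rose less, from 5.00% under 300 bp to 12.3% at 500 to 599 bp and 11.5% at 800 bp up. Lower calls went the other way in GMT, from 16.9% under 300 bp to 6.21% at 500 to 599 bp. Within the wide regions the rank correlation of width with log2 fold change was weak, at most 0.07 in size (T versus control, n = 1365 regions) over the comparisons with the control. Just inside the threshold, at 500 to 509 bp, 144 of 164 regions were tested and 42.4% were called higher in GMT. Just outside, at 490 to 499 bp, 132 of 154 were tested and 41.7% were higher. The shares inside and outside were 20.1 and 23.5% in T, 14.6 and 7.58% in G and 14.6 and 18.2% in M.

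**Figure D4:**
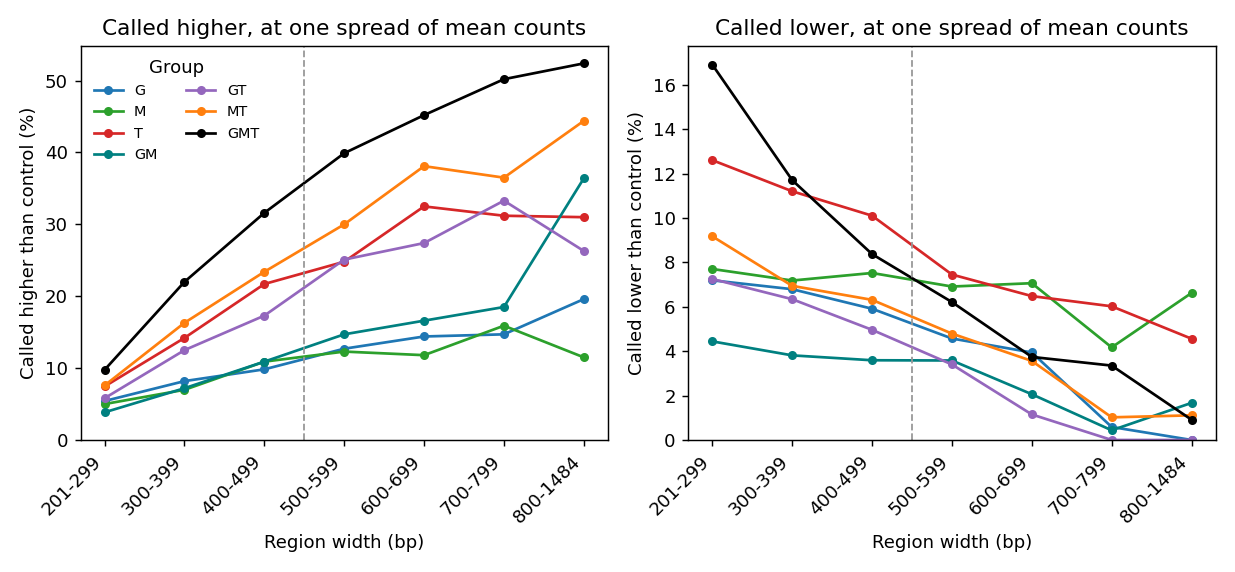
Percentage of regions called higher (left) or lower (right) than the control by width class in bp, for the 7 factor groups, each class weighted to the same mean counts; the dashed line marks 500 bp. The line for GMT climbs from 9.76% under 300 bp to 39.9% at 500 to 599 bp; the class of 800 bp up holds 52 regions.

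Tbx5 alone gave some of the steepest rises among wide regions. Regions are named by mm9 coordinates and were picked by rank of log2 fold change among called regions at or above the median level where no library of either group reaches into the other's range. The level meant is the mean over the 24 libraries. Ranks and leading rises or falls are given among these eligible regions only. Regions below the median level were not ranked, and some of them, named further below, changed more. The region chr5:124588947-124589509 (563 bp) ranked first in T. Its control libraries had 15.6, 7.82 and 6.62 CPM and its T libraries 355, 188 and 152 CPM, a log2 fold change of 4.63 ± 0.69 (adjusted p = 1.53e-05). G, M and GM libraries lay between 7.79 and 25.9 CPM, near the control. MT had 202, 155 and 80.1 CPM and GMT 80.3, 409 and 210 CPM. In GT the library labelled replicate 1 had 7.58 CPM and the other 2 had 207 and 78.1 CPM. So every library labelled with Tbx5 except GT replicate 1 stood above all libraries without it at this region.

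The second region in T, chr17:73371686-73372265 (580 bp), had the same order. It stood at 31.2, 14.3 and 13.2 CPM in the control and at 528, 474 and 317 CPM in T (log2 fold change 4.59 ± 0.56, adjusted p = 1.11e-06). The 9 libraries of G, M and GM had 8.36 to 22.1 CPM. MT had 367, 355 and 325 CPM, GMT 241, 342 and 275 CPM, and GT 12.6, 309 and 195 CPM with replicate 1 again the lowest. It also ranked first for Tbx5 against Gata4 (log2 fold change 5.05 ± 0.57, adjusted p = 3.07e-07) and against Mef2c (5.10 ± 0.58, adjusted p = 3.36e-07). Ranked 3, chr6:91495706-91496623 (918 bp), was higher in G as well as in T. Control libraries had 22.3, 14.3 and 19.9 CPM, G libraries 209, 70.1 and 240 CPM and T libraries 390, 319 and 213 CPM. Its log2 fold changes were 4.03 ± 0.48 in T (adjusted p = 8.87e-07) and 3.26 ± 0.47 in G (adjusted p = 9.55e-05). T and G did not pass the test against each other there (log2 fold change 0.77 ± 0.38, adjusted p = 0.123).

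At the median, falls in T were smaller in size than its rises. The median log2 fold change of wide regions called lower in T was -1.57 and of those called higher 2.30. The deepest eligible fall was at chr7:86481328-86481875 (548 bp), from 69.0, 84.7 and 126 CPM in the control to 17.6, 3.59 and 36.1 CPM in T (log2 fold change -2.30 ± 0.45, adjusted p = 0.000304). It was followed by chr6:35223557-35224144 (588 bp, -2.20 ± 0.41, adjusted p = 0.000181) and chr2:141371651-141372168 (518 bp, -2.15 ± 0.55, adjusted p = 0.00366). At the last of these the T libraries spread from 2.93 to 43.7 CPM, all below the control libraries at 74.7 to 98.0 CPM. Deeper falls in T lay below the median level. An example is chr10:21553538-21554040, from 53.5, 67.7 and 70.0 CPM in the control to 5.86, 3.59 and 5.70 CPM in T.

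**Figure D5:**
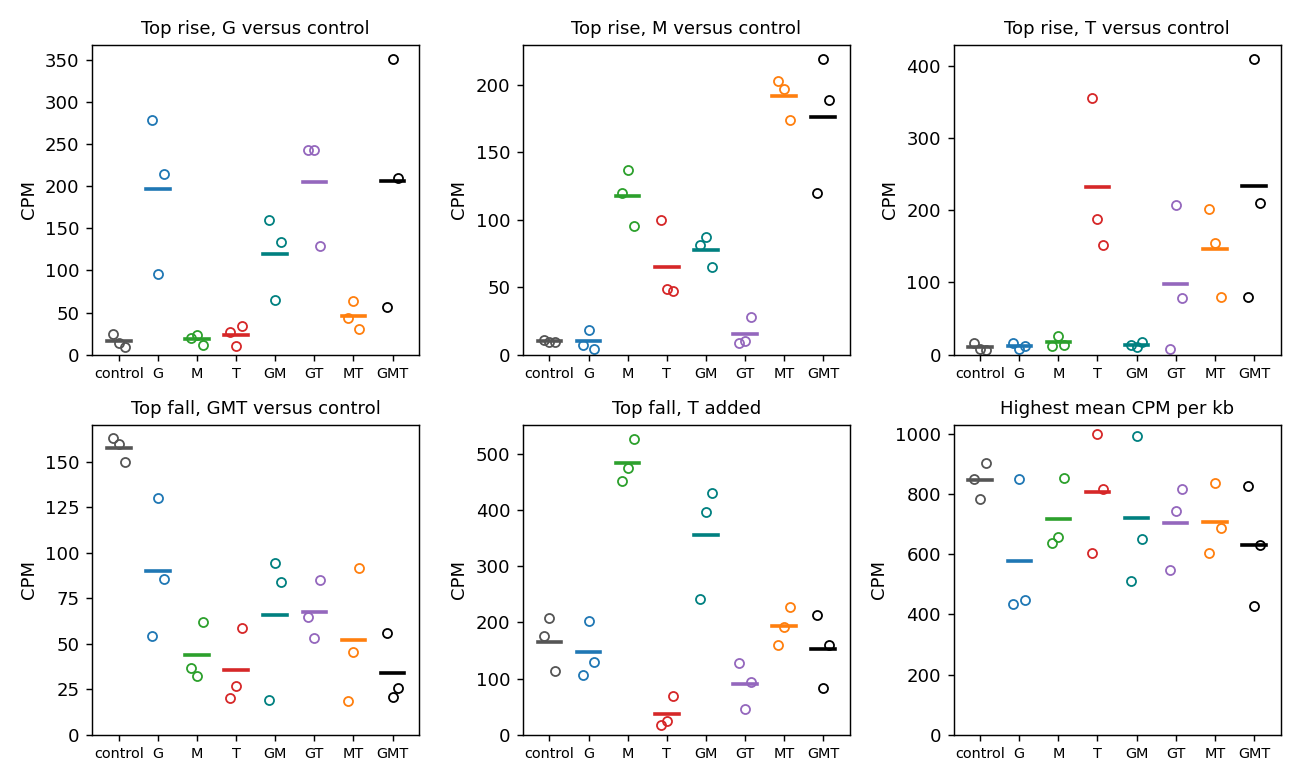
Levels in CPM at 6 named wide regions in all 24 libraries, by group (circles are libraries, lines are group means, n = 3). Top, the highest-ranked rises in G, M and T versus control; bottom, the top-ranked fall in GMT versus control, the top-ranked fall on adding Tbx5, and the wide region with the highest mean level per kb. In the T panel, GT replicate 1 lies at 7.58 CPM and the other GT libraries at 78.1 and 207 CPM.

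All 3 factors together gave the longest list of higher wide regions. The same chr5:124588947-124589509 ranked first in GMT (log2 fold change 4.70 ± 0.69, adjusted p = 1.52e-05). At chr15:68243764-68244614 (851 bp), ranked second, the control libraries had 13.4, 20.8 and 13.2 CPM and the GMT libraries 120, 405 and 544 CPM (log2 fold change 4.51 ± 0.59, adjusted p = 4.27e-06). T alone had 191, 208 and 110 CPM there, MT 349, 307 and 122 CPM, and G and M libraries 7.06 to 28.6 CPM. Ranked 3, chr16:38672576-38673191 (616 bp), had 11.1, 7.82 and 5.67 CPM in the control and 112, 153 and 161 CPM in GMT (log2 fold change 4.20 ± 0.55, adjusted p = 4.27e-06). In GMT the deepest eligible fall was at chr15:32252403-32252917 (515 bp), from 163, 160 and 150 CPM to 56.2, 20.6 and 25.8 CPM (log2 fold change -2.37 ± 0.51, adjusted p = 0.00086). Next were chr13:104283708-104284216 (509 bp, -1.93 ± 0.35, adjusted p = 0.000141) and chr3:109076204-109076796 (593 bp, -1.73 ± 0.47, adjusted p = 0.00562), whose call was lost without GMT replicate 3 (adjusted p = 0.0583). GMT replicate 1 lay closest of the GMT libraries to the control at the regions ranked 1 to 3 among the rises and at the first fall. Without it the wide regions called numbered 708, against 656 with all libraries, and calls over all regions 8166, against 6869.

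In MT the first and second rises were the regions ranked first in M and second in T. The highest-ranked rise was chr16:43456604-43457112 (509 bp), at 203, 197 and 174 CPM against 11.1, 9.12 and 9.46 CPM in the control (log2 fold change 4.28 ± 0.41, adjusted p = 4.86e-08). It was followed by chr17:73371686-73372265 (4.27 ± 0.55, adjusted p = 2.56e-06) and chr15:68243764-68244614 (4.03 ± 0.59, adjusted p = 1.32e-05). The leading eligible falls in MT were chr13:104283708-104284216 (-2.38 ± 0.35, adjusted p = 1.65e-05), chr15:83404949-83405509 (561 bp, -1.93 ± 0.32, adjusted p = 5.79e-05) and chr8:96923385-96924036 (652 bp, -1.75 ± 0.36, adjusted p = 0.000616). At the region on chromosome 8, M and T libraries had 21.7 to 51.0 CPM, while the control had 118, 158 and 170 CPM and G 178, 166 and 256 CPM. G did not pass the test there (log2 fold change 0.43 ± 0.32, adjusted p = 0.407).

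With GT replicate 1 included, the leading eligible rises in GT were the regions that also led in G. At chr11:95217922-95218549 (628 bp) the control had 13.4, 10.4 and 8.51 CPM and GT 116, 235 and 98.8 CPM (log2 fold change 3.86 ± 0.60, adjusted p = 0.0001). G had 155, 36.4 and 108 CPM and T 155, 165 and 64.6 CPM, while M had 8.36, 17.6 and 8.87 CPM. The next were chr18:61657249-61657815 (3.79 ± 0.51, adjusted p = 3.18e-05) and chr6:91495706-91496623 (3.66 ± 0.47, adjusted p = 3.02e-05). Eligible falls in GT were led by chr2:3629499-3630028 (530 bp, -1.81 ± 0.41, adjusted p = 0.00284), with 35.4, 25.2 and 50.5 CPM against 145, 128 and 107 CPM in the control. Those at chr15:16333992-16334552 (561 bp, -1.76 ± 0.57, adjusted p = 0.0281) and chr7:86481328-86481875 (-1.64 ± 0.41, adjusted p = 0.00549) came next. Without GT replicate 1 the log2 fold changes of these 6 regions in GT were 4.02, 3.66, 3.85, -1.81, -1.59 and -1.81, in the order given. At chr16:38672576-38673191 it was 3.56 with that library and 4.07 without it, above these rises, so their ranking depends on GT replicate 1. The regions chr5:124588947-124589509 and chr17:73371686-73372265 were not eligible in GT. There GT replicate 1, at 7.58 and 12.6 CPM, did not stand above the control libraries. The call on chromosome 15 was lost without GT replicate 1 (adjusted p = 0.0749), GT replicate 2 (0.135) or either of control replicates 2 and 3 (0.066 and 0.0644), by DESeq2 (0.0931), with loess offsets (0.0602) and under the stricter filter (0.062). That on chromosome 7 was lost without control replicate 3 (adjusted p = 0.0611). The number of wide regions called in GT was 399, against 169 without GT replicate 2 and 219 without control replicate 3. Calls over all regions fell likewise, from 3872 to 1411 and 1636.

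Gata4 alone raised a smaller set, led by chr18:61657249-61657815 (567 bp). Its control libraries had 24.5, 14.3 and 9.46 CPM and its G libraries 279, 96.1 and 214 CPM (log2 fold change 3.75 ± 0.51, adjusted p = 8.93e-05). Every library labelled with Gata4 had at least 56.2 CPM there, including GT replicate 1 at 243 CPM. M and T libraries had 10.8 to 34.2 CPM, whereas MT, at 43.2, 64.0 and 30.6 CPM, was also called (log2 fold change 1.64 ± 0.54, adjusted p = 0.0251). The second was chr11:95217922-95218549 (3.31 ± 0.60, adjusted p = 0.00054). Eligible falls in G were led by chr18:62176748-62177253 (506 bp), from 71.3, 112 and 128 CPM to 23.6, 26.0 and 33.2 CPM (log2 fold change -1.90 ± 0.38, adjusted p = 0.00133). Those at chr8:82022535-82023037 (503 bp, -1.88 ± 0.47, adjusted p = 0.00608) and chr1:174366647-174367168 (522 bp, -1.84 ± 0.47, adjusted p = 0.00783) followed. Both of these calls were lost without G replicate 1 (adjusted p = 0.0744 and 0.0928), and the latter also without G replicate 3 (0.067). In G, 238 wide regions were called, against 118 without G replicate 1, 117 without G replicate 3, 135 without control replicate 2 and 116 without control replicate 3. The count was 297 without G replicate 2. Calls over all regions moved likewise, from 3213 to 1318, 1409, 1792, 1508 and 4535 in the same order.

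Among the eligible regions, Mef2c alone was the only single factor whose top-ranked fall was as deep as its top-ranked rise. The rise was at chr16:43456604-43457112, with 120, 137 and 95.4 CPM against 11.1, 9.12 and 9.46 CPM in the control (log2 fold change 3.58 ± 0.41, adjusted p = 1.05e-06). The others were chr12:13124761-13125310 (550 bp, 3.29 ± 0.39, adjusted p = 1.31e-06) and chr16:87644511-87645073 (563 bp, 3.01 ± 0.35, adjusted p = 1.2e-06). At chr16:87644511-87645073 the 2 factors went opposite ways. M had 264, 282 and 222 CPM, the control 29.0, 36.5 and 29.3 CPM, and G 9.06, 23.4 and 9.18 CPM (log2 fold change of G -1.41 ± 0.42, adjusted p = 0.0205). M against G there was 4.42 ± 0.40 (adjusted p = 1.11e-08), the highest-ranked difference between those groups. The deepest eligible fall was at chr17:84242883-84243476 (594 bp), from 69.0, 97.7 and 120 CPM to 13.4, 3.10 and 8.87 CPM (log2 fold change -3.61 ± 0.57, adjusted p = 4.64e-05). There MT, at 73.1, 57.3 and 120 CPM, overlapped the control and did not pass the test (-0.24 ± 0.43, adjusted p = 0.738). Next came chr6:39322690-39323201 (512 bp, -2.83 ± 0.56, adjusted p = 0.000618) and chr9:14725708-14726330 (623 bp, -2.79 ± 0.53, adjusted p = 0.000395). Below the median level, and so not ranked, chr3:52890609-52891176 rose from 4.45, 1.30 and 3.78 CPM in the control to 80.2, 43.4 and 88.7 CPM in M. A fit with only the M and control libraries called 418 wide regions, 227 higher and 191 lower, against 266 in the fit of all groups, and without control replicate 3 there were 164. Calls over all regions moved likewise, at 5257, 3308 and 1757 in the same order.

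In GM the top-ranked eligible rise was chr8:113785751-113786280 (530 bp), at 143, 72.0 and 134 CPM against 20.0, 6.51 and 8.51 CPM in the control (log2 fold change 3.46 ± 0.52, adjusted p = 7.27e-05). M libraries had 68.8 to 98.6 CPM there, G 74.3, 18.2 and 71.3 CPM and T 8.79, 8.97 and 17.1 CPM. The regions that led in G and in M, chr18:61657249-61657815 (3.04 ± 0.52, adjusted p = 0.000326) and chr16:43456604-43457112 (2.97 ± 0.42, adjusted p = 3.87e-05), came next. Eligible falls in GM were led by chr13:104283708-104284216 (-1.75 ± 0.34, adjusted p = 0.00111), then by chr15:56516884-56517512 (629 bp, -1.70 ± 0.41, adjusted p = 0.00589) and chr15:16333992-16334552 (-1.68 ± 0.57, adjusted p = 0.0476). At chr15:56516884-56517512, G libraries had 28.1, 77.9 and 33.9 CPM, M libraries 65.2, 65.2 and 53.2 CPM and the control 156, 151 and 148 CPM. T libraries there had 528, 466 and 258 CPM, above the control (log2 fold change 1.45 ± 0.37, adjusted p = 0.00368). Its fall in GM was lost without GM replicate 1 (adjusted p = 0.0832), and that at chr15:16333992-16334552 without GM replicate 1 (0.265), GM replicate 3 (0.154), any of the 3 control libraries (0.0757 to 0.108), M replicate 2 (0.0536), M replicate 3 (0.0517) or T replicate 2 (0.0526). It was also lost by DESeq2 (0.155), with loess offsets (0.0944), with total counts (0.0809) and under the stricter filter (0.104). Wide regions called in GM numbered 259, against 117 without GM replicate 1, 160 without GM replicate 3, 142 without control replicate 2 and 110 without control replicate 3. Calls over all regions fell likewise, from 2510 to 949, 1399, 1175 and 757 in the same order.

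Among groups that all had the inhibitors, Tbx5 again had the most higher calls at wide regions. Each factor's addition was averaged over the 3 backgrounds of the other single factors and their pair. Adding Tbx5 raised 505 wide regions (37.0%, beside 20.3% of all regions tested and 14.9% of narrower regions of similar mean count) and lowered 65 (4.76%, beside 5.86% and 6.21%). Adding Mef2c raised 292 (21.4%, beside 16.2% and 11.6%) and lowered 77 (5.64%, beside 4.58% and 4.41%). Adding Gata4 raised 266 (19.5%, beside 15.0% and 12.8%) and lowered 127 (9.30%, beside 7.25% and 6.67%). In both directions together these were 570 for Tbx5 (41.8%, beside 26.2% of all), 369 for Mef2c (27.0%, beside 20.8%) and 393 for Gata4 (28.8%, beside 22.2%). The median log2 fold change over wide regions was 0.20 for Tbx5, against -0.07 over all regions tested. Medians for Gata4 and Mef2c were near 0, at 0.03 and -0.03. With total counts in place of TMM the Mef2c median was 0.02. Without GT replicate 1, adding Tbx5 raised 513 and lowered 95, adding Mef2c raised 284 and lowered 113, and adding Gata4 raised 256 and lowered 97. The medians were then 0.20, -0.07 and 0.05. Calls over all regions were then 6678, 4454 and 3992 in this order, against 5361, 4262 and 4555 with all libraries.

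The regions that led these averages had large steps. The highest-ranked rise on adding Tbx5 was chr17:73371686-73372265 (log2 fold change 4.22 ± 0.33, adjusted p = 2.97e-10), on adding Mef2c chr16:43456604-43457112 (2.85 ± 0.23, adjusted p = 6.08e-11) and on adding Gata4 chr18:61657249-61657815 (2.68 ± 0.28, adjusted p = 8.74e-08). Falls were shallower. Tbx5 lowered chr10:112066688-112067591 (904 bp) by the largest amount among the wide regions eligible (-1.10 ± 0.20, adjusted p = 7.2e-05). That region had 451, 474 and 526 CPM in M and 159, 192 and 228 CPM in MT, and 17.6, 25.1 and 68.4 CPM in T, against 176, 207 and 114 CPM in the control. Adding Gata4 lowered chr3:115440637-115441271 (635 bp, -1.86 ± 0.25, adjusted p = 3.14e-06). There M had 127, 168 and 73.2 CPM and GM 30.2, 22.3 and 17.4 CPM, and T had 76.2, 86.1 and 43.7 CPM and GT 6.32, 12.1 and 18.4 CPM. Adding Mef2c lowered chr11:97053434-97054050 (617 bp, -1.0 ± 0.23, adjusted p = 0.00141), where G had 151, 72.7 and 267 CPM and GM 50.0, 64.5 and 77.4 CPM. Without GT replicate 1 these 3 falls were -1.23, -1.75 and -0.87, and the 3 rises 4.41, 2.76 and 2.64.

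Single factors set against each other differed at many wide regions. T was higher than G at 372 (27.3%, beside 16.7% of all tested and 14.7% of the matched narrower) and lower at 208 (15.2%, beside 16.7% and 14.5%). Against M, T was higher at 400 (29.3%, beside 16.1% and 13.3%) and lower at 186 (13.6%, beside 15.3% and 12.2%). M was higher than G at 204 (14.9%, beside 14.9% and 11.0%) and lower at 261 (19.1%, beside 15.8% and 13.3%). Calls in either direction numbered 580 for T against G (42.5%, beside 33.4% of all), 586 for T against M (42.9%, beside 31.4%) and 465 for M against G (34.1%, beside 30.7%). The share of wide regions higher in M than in G was thus that of all regions tested. The leading regions where T was lower were chr18:61657249-61657815 against G (-3.09 ± 0.50, adjusted p = 2.39e-05) and chr10:112066688-112067591 against M (-3.65 ± 0.40, adjusted p = 2.05e-07), and M was lowest against G at the former (-3.41 ± 0.50, adjusted p = 6.64e-06).

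A few wide regions are named because they were called in the same direction in all 7 comparisons, which share the control libraries. At most 5 were named in each direction, by their weakest log2 fold change, so the higher list may be incomplete. How many regions met this condition, wide or narrower, is not given here. At chr3:52890609-52891176 (568 bp) the control had 4.45, 1.30 and 3.78 CPM, from 1 to 4 counts per library. G had 9.97, 15.6 and 24.7 CPM, T 20.5, 17.9 and 17.1 CPM and M 80.2, 43.4 and 88.7 CPM, and log2 fold changes ran from 2.42 in G to 4.80 in GM and in GMT. The M libraries stood above all G and T libraries (M against G 2.01 ± 0.46, adjusted p = 0.00117). The other higher ones named were chr8:47961140-47961736 (597 bp, 1.78 in T to 3.36 in GMT), chr16:38672576-38673191 (1.72 in G to 4.20 in GMT), chr1:152985695-152986341 (647 bp, 1.53 in T to 3.35 in GM) and chr15:73166660-73167421 (762 bp, 1.39 in T to 3.65 in GMT). Lower in all 7 were chr3:38175807-38176381 (575 bp, -1.71 in G to -2.71 in T), chr10:21553538-21554040 (503 bp, -1.40 in G to -3.66 in T), chr18:79663757-79664350 (594 bp, -1.09 in M to -1.38 in GT) and chr13:104283708-104284216 (-0.91 in G to -2.38 in MT). At chr10:21553538-21554040 the control had 53.5, 67.7 and 70.0 CPM, the T libraries 5.86, 3.59 and 5.70 CPM and the MT libraries 9.53, 10.1 and 7.06 CPM. Without GT replicate 1 the log2 fold changes in GT at these 9 regions were 2.89, 1.83, 4.07, 1.29, 2.25, -2.57, -2.90, -1.28 and -1.02, in the order given. Each of these 9 regions lost at least 1 of its 7 calls when a library was left out. At chr3:52890609-52891176 these were G (without G replicate 3 or control replicate 2, adjusted p 0.0753 to 0.131) and GT (without GT replicate 2, 0.0718). At chr8:47961140-47961736 they were T (without T replicate 1 or any control library, 0.0574 to 0.231) and GM (without GM replicate 1, 0.0983). At chr16:38672576-38673191 they were G (without G replicate 1 or 3, any control library, M replicate 2 or T replicate 2, 0.0505 to 0.192, and with no filter, 0.0517, or the stricter one, 0.0523) and M (without M replicate 3 or control replicate 2 or 3, 0.0553 to 0.107). At chr1:152985695-152986341 they were G (without G replicate 1 or 3 or any control library, 0.0583 to 0.107), GT (without GT replicate 1 or 2 or any control library, 0.053 to 0.121) and T (without any T or control library or GM replicate 3, 0.0512 to 0.132, and with no filter, 0.0951). At chr15:73166660-73167421 they were G (without control replicate 3, 0.057), M and T (both without control replicate 2 or 3, 0.0556 to 0.109 and 0.0868 to 0.157).

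Among the lower regions, chr3:38175807-38176381 lost G (without G replicate 1 or 3 or control replicate 2 or 3, 0.0502 to 0.122) and GM (without GM replicate 1, 0.0601). At chr10:21553538-21554040 the calls lost were G (without the same 4 libraries, 0.078 to 0.138) and GM (without GM replicate 1 or control replicate 2 or 3, 0.0535 to 0.0968). At chr18:79663757-79664350 they were G (without G replicate 1, 0.0558), M (without M replicate 2 or control replicate 2, 0.0603 to 0.0921), GM (without GM replicate 1, 0.0608), MT (without MT replicate 1 or 2, 0.0545 to 0.0573) and GMT (without GMT replicate 3, 0.0546, or with loess offsets, 0.0581). The weakest call was chr13:104283708-104284216 in G (adjusted p = 0.0492), which was lost without any of 14 libraries (0.0501 to 0.211), the 6 of G and the control among them. It was also lost with RLE size factors (0.055), total counts (0.0709), loess offsets (0.0598), no filter (0.0711), the stricter filter (0.0503) and the replicate block (0.0537), and its GT call without control replicate 3 (0.0644).

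The 5 wide regions with the highest level per kb had 1 call in all against the control. The highest mean level per kb was at chr12:119540428-119540954 (527 bp, 1350 CPM per kb), with 849, 784 and 901 CPM in the control and 827, 428 and 631 CPM in GMT, and no comparison with the control passed the test there. Next were chr15:3945592-3946236 (645 bp, 1340 CPM per kb), chr10:50312344-50312919 (576 bp, 1190), chr15:25913818-25914321 (504 bp, 1150) and chr18:73974959-73975493 (535 bp, 1090). Of these 5, only chr15:25913818-25914321 had a call against the control, in GMT (log2 fold change -0.58 ± 0.19, adjusted p = 0.0208). All 5 lie in the bin with most counts, where calls were few among wide regions in general. There the shares called higher ran from 0% in M to 6.57% in T. Those called lower ran from 0% in GT to 13.9% in GMT. The smallest range of group means was 0.25 on the log2 CPM scale, at chr10:127986048-127986591 (544 bp) and at chr4:15885360-15885926 (567 bp). The latter stood at 316, 301 and 339 CPM in the control and 357, 205 and 282 CPM in GMT. It was 0.28 to 0.30 at chr7:133343756-133344524 (769 bp), chr2:158620076-158620662 (587 bp) and chr17:23810147-23810739 (593 bp).

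The widest regions of the table were not the most open. The widest, chr9:89854866-89856349 (1484 bp), had a mean of 4.74 CPM per kb and was not tested, with 3.73 ± 0.823 CPM in the control (SD, n = 3) and 7.40 ± 5.82 CPM in GMT. At chr10:93212078-93213251 (1174 bp) the control had 66.8, 63.8 and 63.4 CPM, and T (284, 145 and 116 CPM, log2 fold change 1.47 ± 0.45, adjusted p = 0.0136) and GMT (84.3, 312 and 260 CPM, 1.81 ± 0.44, adjusted p = 0.00219) were higher. At chr6:37225463-37226589 (1127 bp) T was higher (at least 133 CPM in each library against 84.6, 89.9 and 81.3 CPM in the control, log2 fold change 1.03 ± 0.36, adjusted p = 0.0305). At chr10:105179671-105180823 (1153 bp) and chr10:11735447-11736566 (1120 bp) no comparison with the control passed the test. Their mean levels were 12.1 and 23.6 CPM per kb.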

How the data were processed

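The 24 ATAC-seq libraries, 3 for each of 8 groups, came from aliquots of 50000 cells, per the labels' protocols. The deposited table holds raw whole-number counts per region, made by the authors, with each region's mm9 coordinates and width; Bowtie2, Picard and featureCounts are named in the submitters' processing notes, without versions. How the regions were defined, and whether from ATAC-seq or ChIP-seq, is not given in the sources used here.

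Regions were kept by filterByExpr (minimum count 10, minimum total 15) and scaled by TMM. All 8 groups were fitted in 1 model with edgeR 4.0.16 (R 4.3.3, limma 3.58.1), by the quasi-likelihood test, with Benjamini-Hochberg adjustment over all 20494 regions tested and a threshold of 0.05. The scripts were tested on simulated counts. CPM is the count scaled to the library's TMM-adjusted size. Narrower regions were weighted to the wide regions' spread over 10 bins of mean log2 CPM (prior count 2).

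Named regions are, for each comparison with the control, the 3 highest and 3 lowest log2 fold changes among called wide regions at or above the median level whose groups do not overlap. Added to them are the first in each direction for the 6 other comparisons, the 5 widest, the 5 highest per kb, the 5 with the smallest range of group means, and up to 5 in each direction called in all 7 comparisons with the control. The members and lists were chosen with earlier results of these data known. Alternatives covered the filter, the scaling, DESeq2 1.42.0, a replicate block, the libraries in the fit, the threshold, the width limit and the matching.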

Additional observations from a re-analysis of the deposited data

How the results depend on the processing

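Under the alternatives run, the excess of higher calls in wide regions reversed in none of the 7 comparisons with the control. No difference from the control in share of counts reversed, nor did any named log2 fold change. A number of regions called has no direction to reverse. The difference in lower calls was not run under the alternatives. Nor was the excess of higher calls in the averaged additions or between single factors. Median log2 fold changes near 0, in M and on adding Mef2c or Gata4, changed sign under some alternatives. At an adjusted p under 0.01, edgeR called 122 wide regions in G (238 at 0.05), 165 in M (266), 141 in GM (259), 248 in GT (399) and 246 on adding Gata4 (393). Calls over all regions were then 1370 (3213 at 0.05), 1747 (3308), 997 (2510), 1645 (3872) and 2376 (4555), in this order. A fit of M and control libraries alone called 418 wide regions in M, and 5257 over all regions. Leaving out each of the 24 libraries in turn gave 116 to 297 wide regions in G, 164 to 298 in M, 368 to 498 in T, 110 to 303 in GM, 169 to 419 in GT, 353 to 542 in MT and 497 to 708 in GMT. It gave 317 to 408 on adding Gata4, 317 to 442 on adding Mef2c, 504 to 608 on adding Tbx5, 437 to 605 for T against G, 494 to 601 for T against M and 326 to 498 for M against G. Calls over all regions moved in the same fits, from 1318 to 4535 in G, 1757 to 3807 in M and 3390 to 5733 in T. They ran from 757 to 3132 in GM, 1411 to 4246 in GT, 2638 to 5738 in MT and 3997 to 8166 in GMT. On adding Gata4 they were 3578 to 4902, on adding Mef2c 3528 to 5382 and on adding Tbx5 4347 to 6678.

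The excess of higher calls in wide over matched narrower regions, in points, depended on the match. Matched on CPM per kb it was 4.27 in G (6.85 as reported), 2.08 in M (6.43), 7.86 in GM (10.6), 15.4 in GT (18.0), 17.4 in MT (21.5) and 21.1 in GMT (27.7). Against regions under 300 bp it was 20.5 in T (17.0), 21.0 in GT, 25.5 in MT and 33.2 in GMT. With a limit of 400 bp it was 4.80 in G, 8.42 in GM, 13.7 in GT, 17.6 in MT and 23.8 in GMT, and with 700 bp 19.5 in T, 14.3 in GM, 21.3 in GT and 31.4 in GMT. Without the 1% of regions with most counts, the share of counts in wide regions was higher in MT than in the control by 2.47 points (1.98 with them). The cause of these changes was not tested. Of 3725 values for named regions under alternatives, 3600 kept direction and side of the threshold and 125 lost the call.

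With the replicate number as a block, edgeR called 240 wide regions in G, 262 in M, 480 in T, 258 in GM, 397 in GT, 511 in MT and 663 in GMT, and 391, 371 and 563 on adding Gata4, Mef2c and Tbx5. It called 583 for T against G, 584 for T against M and 463 for M against G. The numbers were not taken as pairing the samples: correlations of same-numbered libraries' deviations ran from -0.44 to 0.48, and in 0 of the 7 pairs with the control were all 3 over 0.1. Every library correlated best with its own number in 2 of 28 pairs of groups. Scaling by total counts moved the median log2 fold change of all regions from 0.00 to -0.13 in T against G and from -0.01 to -0.13 in T against M. The 184 wide regions with 11 to 195 counts over all libraries were not tested.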
